A study of Trametes gibbosa with 15 samples.

Results

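The genes described here are genes of the reference annotation (identifiers beginning gene_) of Trametes (Lenzites) gibbosa, a fungus that causes white rot of wood. They were abundant without wood, and their mean level stayed near that level on every sampled day with wood. They were chosen from the measured values. The control mean had to be 500 or more counts per 1000000 counts of the library (CPM), and the mean at each of days 3, 5, 7 and 11 had to lie from 25% below to 33% above the control mean. This rule found 95 genes among 12038 reference genes and 12885 rows in all. The library size in CPM was corrected by the trimmed mean of M values (TMM), a scaling that places the middle of all genes at the same level in every library. A level called steady is therefore steady relative to the other genes, and the amount of RNA per cell or per culture was not measured.

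The mycelium came from strain CB-1, a single isolate taken from a fruiting body, grown without shaking in a low-nitrogen asparagine and succinate medium (LNAS) with glucose. After 10 days the control cultures (CK) were harvested without wood, and the others received 2 g of chips of the poplar hybrid Populus simonii × P. nigra and grew on for 3, 5, 7 or 11 days. The 5 groups have 3 libraries each, described in the labels as biological replicates. Every wood library came from an older culture than the controls, so wood and culture age cannot be told apart.

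White-rot fungi break down lignin together with cellulose and hemicellulose by secreting oxidative and hydrolytic enzymes, and the set of secreted enzymes is known to change with the carbon source. Genes for general cell functions, such as protein synthesis, energy metabolism and the cytoskeleton, are often abundant in growing mycelium and are the usual source of reference genes for quantitative PCR. The files used here give the 95 genes no product names, so none of these functions can be assigned to them, and the genes are described by identifier.

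Library totals lay between 32472274 and 48361622 estimated counts. The codes in the labels divide the libraries into a first series, with the 3 controls and replicate 1 of days 3, 5 and 7, and a second series with the other 9. What these codes stand for is not given in the labels. One day 5 count column has a heading, D5-23, that is no sample's title. It was taken as a day 5 library, is called the unnumbered library, and was placed in the second series because the day 5 sample with no count column of its own carries a second-series code. That assignment rests on the heading and the labels and could not be checked further.

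The 95 genes were a minority of the abundant genes. Of the 438 reference genes with a control mean of 500 CPM or more, 264 lay outside the limits on all 4 wood days, 37 lay inside them on 1 day, 17 on 2 days, 25 on 3 days and 95 on all 4. Of the 343 abundant genes that failed the rule, 254 lay below the limits on all 4 days and 10 lay above them on all 4. The median ratio to control of those 343 genes was 0.50, 0.489, 0.447 and 0.467 at days 3, 5, 7 and 11. For the 95 genes the corresponding medians were 1.02, 0.960, 0.939 and 0.961. Among the 11386 genes tested at any abundance, 26.1% met the limits on the ratio at all 4 days. These counts follow from the rule and carry no test.

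At the limits of the rule, neighbouring genes differed little. The member with the lowest control level was gene_6493 at 503 CPM, and the reference gene just under the limit that met the ratios was gene_1554 at 499 CPM. The lowest ratio among the members was 0.757, for gene_3206 at day 5, and just outside lay gene_5294 with 0.743 at day 11. The highest ratio among the members was 1.31, for gene_758 at day 3, and just outside lay gene_2000 with 1.34 at day 3.

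Together the 95 genes held 6.93% ± 0.0687 (SD, n = 3) of all control counts. Their share was 8.88% ± 0.246 at day 3, 8.70% ± 0.438 at day 5, 8.81% ± 0.557 at day 7 and 9.11% ± 0.227 at day 11 (SD, n = 3 each). The 3 controls held 6.88% to 7.00% and the 12 wood libraries 8.23% to 9.34%, so the groups did not overlap. The genes thus took a larger part of each wood library although their TMM-scaled means stayed near the control. In the same libraries the other 343 abundant genes went from 40.1% ± 0.543 (SD, n = 3) of control counts to 23.1% ± 1.28 (SD, n = 12) with wood, and all remaining rows went from 53.0% ± 0.487 to 68.0% ± 1.30. These shares are tied to the rule through the scaling and were not tested.

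**Figure D1:**
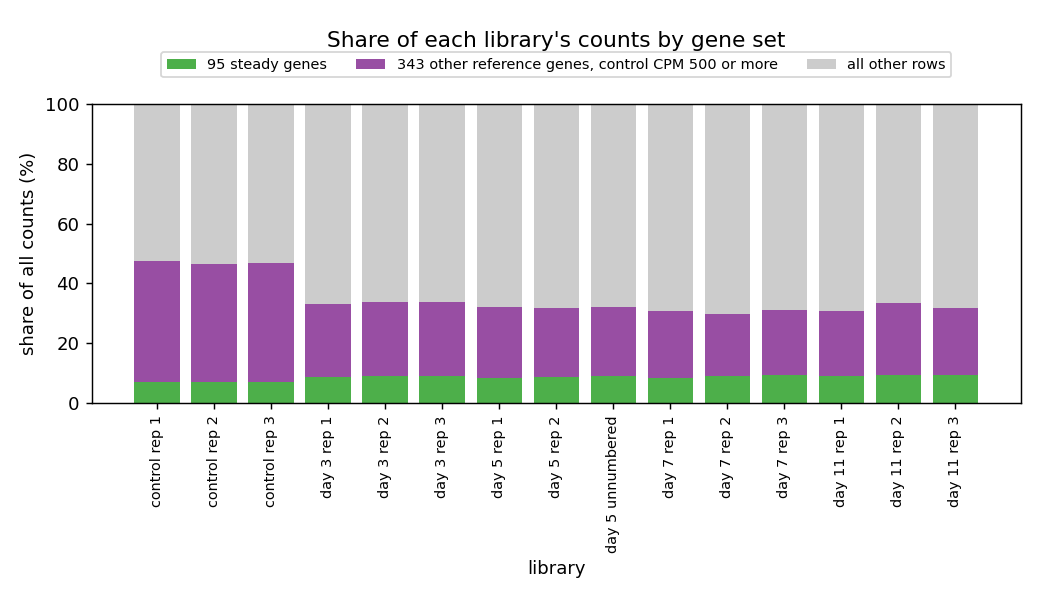
Share of all counts (%, vertical axis) held by the 95 steady genes, the 343 other reference genes with a control mean of 500 CPM or more, and all other rows, in each of the 15 libraries. The lowest band, the steady genes, covers 6.88% to 7.00% of control counts and 8.23% to 9.34% of the counts of the wood libraries, while the band above it shrinks from 40.1% to 23.1% on average.

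The steadiness depended on the scaling. With library totals in place of TMM, the median of all genes tested lay 0.38 to 0.51 (log2) above the control at the 4 days, and the median ratio of the 95 genes was 1.28, 1.26, 1.27 and 1.30 at days 3, 5, 7 and 11. On that scale 89 of the 95 lay above the control at all 4 days, 55 exceeded the upper limit on at least 1 day and 0 lay under the lower limit. When the whole rule was applied to library totals, with the floor of 500 as well, it found 74 genes, of which 24 were among the 95. The deposited FPKM values (fragment counts scaled for transcript length and for the mapped fragments of the library) gave median ratios of 1.27, 1.23, 1.26 and 1.30, and 43 of the 95 met the limits at all 4 days. With the size factors of DESeq2 the rule found 95 genes, 91 of them shared, and with upper-quartile factors 97, including all 95.

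Control means of the members ran from 503 to 5782 CPM with a median of 670 CPM, beside 871 CPM for the other 343 abundant genes and 23.9 CPM for all genes tested. There were 21 members at 1000 CPM or more and 74 between 500 and 1000. The single highest member held at most 0.681% of the counts of any library. The first 20 members by control level held 2.96% of all control counts and 42.7% of the summed control CPM of the 95. CPM is not scaled by transcript length, so these values order counts and not transcripts.

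The member with the highest counts was gene_10750. Its level was 4986, 6036 and 6324 CPM in the controls, 4077, 6870 and 5506 CPM at day 3, 4057, 5518 and 4859 CPM at day 5, 3620, 4615 and 5337 CPM at day 7, and 4989, 5032 and 6395 CPM at day 11, in order of replicate with the unnumbered library last. Replicate 1 of days 3, 5 and 7 was the lowest library of its day and lay below every control. The remaining wood libraries overlapped the controls except that replicate 2 of day 3 and replicate 3 of day 11 were above all of them, and replicate 2 of day 7 and the unnumbered library of day 5 were below.

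The next gene, gene_758, came nearest to the upper limit. Its controls held 2906 to 3136 CPM, and the wood libraries 3659 to 4256 CPM at day 3, 2084 to 3952 CPM at day 5, 2949 to 3095 CPM at day 7 and 1701 to 3004 CPM at day 11. All 3 libraries of day 3 were above all 3 controls, and replicate 1 of day 5 and replicate 1 of day 11 were far below them. Its mean ratio to control was 1.31, 1.02, 0.992 and 0.826 at days 3, 5, 7 and 11.

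The other 4 of the first 6 members by control level differed in how closely their libraries lay together. For gene_5056 the controls held 1877 to 2456 CPM and the wood libraries 1833 to 2523 CPM, almost the same range, with a ratio of 0.945 to 1.06 by day. For gene_2865 the controls held 2269 to 3003 CPM and the wood libraries 1880 to 3298 CPM, again a range that contains the controls. For gene_11621 the controls held 2034 to 2373 CPM and the wood libraries 2167 to 3002 CPM, and its ratio was above 1 on every day (1.07 to 1.28). These ranges hold on the TMM scale. In FPKM the wood libraries of gene_5056 held 1220 to 1603, above all its controls at 894 to 1180. Those of gene_11621 also lay above all its controls in FPKM, and those of gene_2865 overlapped them.

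In gene_9422 all 12 wood libraries lay below all 3 controls on the TMM scale, the only member with such a gap. The controls held 2102, 2004 and 2082 CPM, and the wood libraries 1467 to 1958 CPM. Its ratio was 0.783, 0.893, 0.815 and 0.825 at days 3, 5, 7 and 11, inside the limits throughout. In FPKM there was no such gap, with 498 to 510 in the controls and 461 to 629 in the wood libraries. The FPKM mean was 503 in the control and 495, 577, 552 and 556 at days 3, 5, 7 and 11. No member had all 12 wood libraries above all controls on the TMM scale. Among all genes tested, 11.4% had every wood library below the controls and 12.3% above, and since the rule used these means nothing is read from the member counts.

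**Figure D2:**
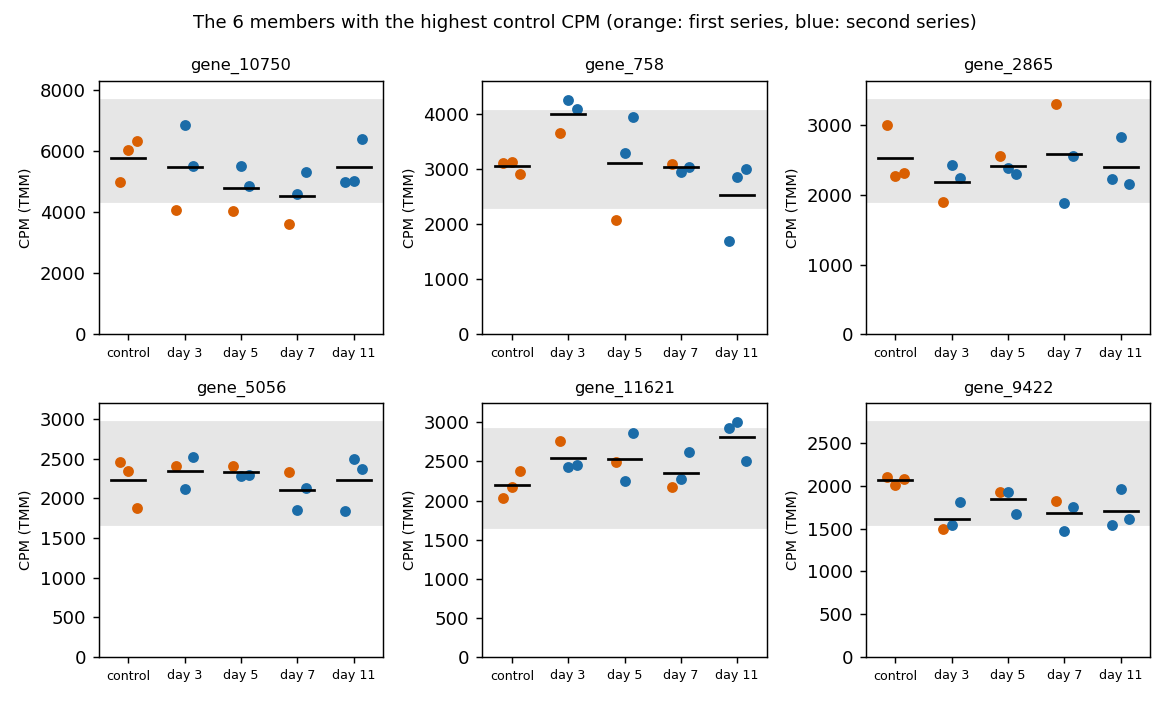
Level (CPM, vertical axis from 0) of the 6 members with the highest control means in every library, by group. Each dot is a library (orange for the first series, blue for the second), the black bar is the group mean and the grey band spans the limits of the rule, 25% below to 33% above the control mean. The day 3, 5 and 7 libraries of the first series are the lowest of their day in gene_10750, and gene_9422 has all wood libraries below its controls.

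Per transcript length the order differed. Mean FPKM over the 15 libraries ran from 37.3 to 2265 with a median of 369, beside 226 for the other 343 abundant genes and 12.5 for all genes tested. The 3 members with the highest FPKM were gene_10750, gene_11621 and gene_3412, with means of 2265, 2213 and 1615 FPKM. For gene_3412 the controls held 1675 to 2227 CPM and the wood libraries 1568 to 2196 CPM. Its ratios of CPM to control lay between 0.939 and 0.985 at all 4 days. Its mean FPKM, however, was 1324 in the control and higher at days 3, 5, 7 and 11, at 1652, 1664, 1693 and 1743. In contrast gene_758 and gene_9422, among the first 6 by CPM, ranked 15 and 26 by FPKM.

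The members followed several patterns inside the limits. The mean was above the control on all 4 days in 19 genes, below it on all 4 in 35 and on both sides in 41. On all 4 days 23 genes stayed within 10% of the control, and 71 stayed from 20% below to 25% above it. Day 3 was the highest of the 4 wood days in 50 genes, day 11 in 23, day 7 in 14 and day 5 in 8. The shares over all genes tested were not taken. Day 11 holds only second-series libraries and days 3, 5 and 7 hold both series, so nothing is read from the counts by highest day. At days 3, 5, 7 and 11, 50, 41, 33 and 36 of the 95 lay above the control.

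**Figure D3:**
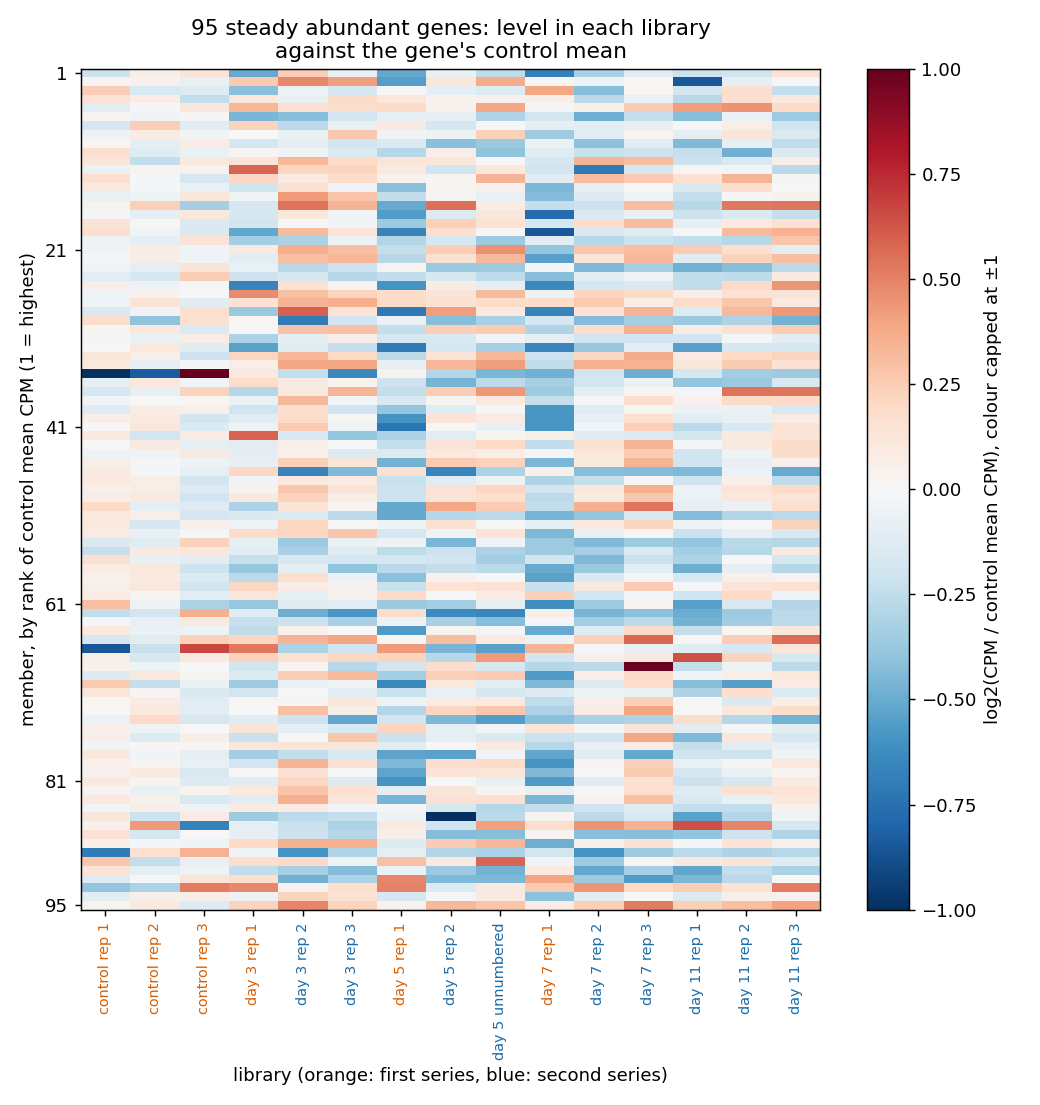
Level of each of the 95 members (rows, by rank of control CPM) in each library (columns) as log2 of CPM over the gene's control mean, from blue (lower) to red (higher), with colour capped at ±1. Library names are orange for the first series and blue for the second. Day 5 replicate 1 or day 7 replicate 1 was the lowest library for 47 of the 95 genes. The share over all genes tested was not taken, so this count is not read as a trait of the members.

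The spread between libraries of a group was far above counting error. All members had at least 8943 counts in every library, and the counting error was at most 0.762% at a member's mean count and at most 1.06% in any single library. The coefficient of variation (CV, SD over mean) within groups, pooled over the 5 groups, had a median of 13.8% over the 95 genes and ran from 6.75% to 42.4%, more than 5 times the counting error in all 95. The corresponding median was 18.6% for the other 343 abundant genes and 21.3% for all genes tested. By group, the median CV of the members was 8.71% in the control, 10.4% at day 3, 14.9% at day 5, 16.0% at day 7 and 10.3% at day 11. Over all genes tested it was 16.0%, 18.1%, 20.8%, 19.4% and 14.9% in the same order. Days 3, 5 and 7 hold libraries of both series, and the control and day 11 hold a single series each. The CVs of these groups are therefore not like for like. The rule used the means of the same libraries, so these CVs are a description.

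Over all 15 libraries the CV was under 10% in 12 members, from 10% to under 20% in 70 and 20% or more in 13. The ratio of the highest to the lowest library was under 1.5 in 27 genes and over 2 in 15, with a median of 1.62. Steadiness of the means thus left room for single libraries to lie apart. In 29 of the 95 genes every one of the 15 libraries lay from 25% below to 33% above the control mean.

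By TMM-scaled CPM, the 4 members with the lowest CV over 15 libraries were gene_3561, gene_10810, gene_772 and gene_2471, with 7.38%, 7.79%, 8.06% and 8.09%. For gene_3561 the controls held 797, 769 and 848 CPM and the wood libraries 647 to 845 CPM, with ratios of 0.896 to 0.932. For gene_10810 the controls held 573, 536 and 553 CPM and the wood libraries 500 to 641 CPM, a highest-to-lowest ratio of 1.28, which was the smallest of all 95. The wood libraries of gene_3561 overlapped the controls and reached below them, and those of gene_10810 reached past the controls on both sides. For gene_772 the controls held 598, 620 and 547 CPM and the wood libraries 493 to 695 CPM, and its 4 daily ratios lay between 0.985 and 1.04. For gene_2471 the controls held 551, 513 and 552 CPM and the wood libraries 495 to 657 CPM.

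The 4 members with the highest CV over 15 libraries, gene_9918, gene_1041, gene_7586 and gene_5600, met the limits with libraries that disagreed. For gene_9918 the controls held 322, 434 and 1557 CPM, and the 12 wood libraries 493 to 821 CPM. Its control mean of 771 CPM therefore came mostly from replicate 3, and every wood library lay above replicates 1 and 2 and below replicate 3. For gene_1041 the controls held 330, 513 and 952 CPM and the wood libraries 411 to 862 CPM. In gene_7586 the controls were close, at 609, 573 and 592 CPM, and a single wood library, replicate 3 of day 7 with 1164 CPM, stood above the range of 484 to 667 CPM of the other 11. For gene_5600 the controls held 996 to 1476 CPM and the wood libraries 881 to 1837 CPM.

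Leaving out any 1 library and applying the rule again gave 87 to 99 genes, and 59 of the 95 stayed members in all 15 such runs. Without replicate 1, 2 or 3 of the control gene_9918 left the list each time, and it also left without replicate 1 of day 3 or replicate 2 of day 7. Of the others with high CV, gene_1041 and gene_5600 each left in 3 of the 15 runs and gene_7586 in 2.

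The ratio to control also differed by library series. Because all controls belong to the first series and all of day 11 to the second, the ratio to control was taken again within the first series, where days 3, 5 and 7 have 1 library each. The median ratio of the 95 genes was then 0.948 at day 3, 0.882 at day 5 and 0.846 at day 7. With second-series libraries over the first-series controls it was 1.04, 1.01, 0.972 and 0.961 at days 3, 5, 7 and 11. Within the first series 84, 70 and 66 members met the limits at days 3, 5 and 7, and 55 met them on all 3 days, where 24.3% of all genes tested did. Of the members outside, 6, 22 and 29 lay below the limits and 5, 3 and 0 lay above.

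In 30 of the 95 genes the first-series libraries of days 3, 5 and 7 all lay below all 3 controls, and in 4 genes all lay above them. Among all genes tested 20.1% and 21.9% did so. For these 30 genes the mean over both series was inside the limits while the libraries that share a series with the controls were all lower. The rule used the same libraries, so these counts are descriptions.

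**Figure D4:**
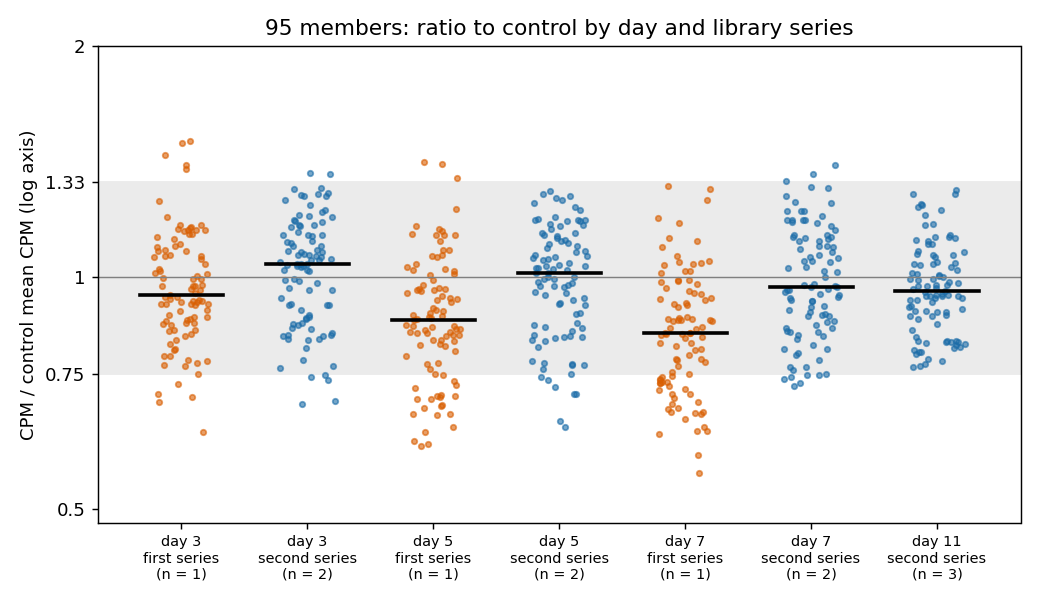
Ratio of CPM to the control mean (log axis) for each of the 95 members at each day, for the first-series library (orange) and the mean of the second-series libraries (blue), with black bars at the medians and a grey band from 25% below to 33% above the control. The orange medians are 0.948, 0.882 and 0.846 at days 3, 5 and 7, and the blue medians 1.04, 1.01, 0.972 and 0.961 at days 3, 5, 7 and 11.

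The rule used group means and not the difference between the series inside days 3, 5 and 7, which was tested. However, the controls are all first series and the wood means include second-series libraries. The ratio that the rule limits therefore contains part of this difference. The number, size and direction of the calls among members are not independent of the rule. With edgeR's quasi-likelihood test and Benjamini-Hochberg adjustment over 11386 genes, at a threshold of 0.05, 37 of the 95 members differed between the series, 38.9%, beside 20.2% of all genes tested and 30.0% of the other 343 abundant genes. The second series was higher in 31 of them, 32.6% of the members beside 10.9% of all genes, and lower in 6, 6.32% beside 9.22%. Of the other 343 abundant genes, which the rule left out, 10.8% were called higher in the second series and 19.2% lower. The called differences of the members ran from 1.19-fold to 1.83-fold. With a difference of 2-fold or more 0 of the 95 were called, where 2.69% of all genes tested were. Since the rule limits the means of these same libraries, nothing is read from that count. At an unadjusted p under 0.05 the count was 49 of 95, beside 3771 of the 11386 genes tested and 145 of the other 343 abundant genes. The median log2 difference, second minus first series, was 0.18 over the 95 genes and 0.0083 over all genes tested. Over the other 343 abundant genes it was -0.077. The median standard error (SE, the size of the log2 difference over the square root of the F statistic) was 0.109 for the members and 0.183 for all genes.

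This count moved with single libraries, as did the count over all genes. Without replicate 1 of day 5 it was 11, beside 7.82% of all genes tested, and without replicate 1 of day 7 it was 14, beside 9.44%. Without both, a choice made after seeing the data that leaves 1 first-series library with wood, edgeR called 0 members and 0.556% of all genes, and 11 members had an unadjusted p under 0.05. With the replicate number as a block and without the unnumbered library, edgeR called 0 members and 0 of all genes, and 19 members had an unadjusted p under 0.05. The share of all genes at that unadjusted level was not taken in these settings, so nothing is read from these unadjusted counts. Replicate 1 of days 3, 5 and 7 is the first-series library of each, so there the block and the series overlap. Replicate 1 of day 5 and replicate 1 of day 7 were the lowest of the 15 libraries for 17 and 30 members.

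The 4 members with the largest called difference in favour of the second series were gene_3992, gene_6398, gene_3542 and gene_5483. For gene_3992 the first-series libraries of days 3, 5 and 7 held 654, 513 and 534 CPM, and the 6 second-series libraries of those days 898 to 1276 CPM (log2 difference 0.87, SE 0.153, edgeR adjusted p = 0.0030). Its controls held 763 to 948 CPM, above the first-series wood libraries and overlapping the second-series ones. For gene_6398 the values were 758, 683 and 604 CPM against 973 to 1348 CPM, with 979 to 1219 CPM in the controls (log2 difference 0.73, edgeR adjusted p = 0.0012). For gene_3542 they were 535, 463 and 559 CPM against 673 to 960 CPM, and for gene_5483 584, 616 and 594 CPM against 824 to 1027 CPM (edgeR adjusted p = 0.0035 and 0.0079). In all 4 genes the second series was higher on each of the 3 days with no overlap.

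The 4 with the largest called difference in the other direction were gene_3872, gene_4088, gene_2784 and gene_2102. For gene_3872 the first-series libraries held 571, 713 and 669 CPM, and the second-series libraries of the same days 344 to 410 CPM (log2 difference -0.79, SE 0.111, edgeR adjusted p = 0.0011). Its controls held 466, 502 and 558 CPM, so on days 3, 5 and 7 the first-series libraries lay above the controls and the second-series ones below, while the mean ratio stayed between 0.855 and 0.958. For gene_4088 the values were 776, 751 and 699 CPM against 425 to 542 CPM (log2 difference -0.63, edgeR adjusted p = 0.0034). For gene_2784 they were 562, 693 and 641 CPM against 389 to 460 CPM, and for gene_2102 494, 545 and 534 CPM against 388 to 450 CPM (edgeR adjusted p = 0.0087 and 0.0098). The calls of gene_5483, gene_2784 and gene_2102 were lost without replicate 1 of day 5, with edgeR adjusted p = 0.0505, 0.094 and 0.096, and that of gene_2102 also without replicate 1 of day 7 (edgeR adjusted p = 0.078). With the replicate block all 8 of these genes kept their direction and lost the call, with edgeR adjusted p values from 0.091 for gene_3872 to 0.35 for gene_5483. The log2 difference was smaller with the block in 4 of them, at 0.54 for gene_3992, 0.71 for gene_6398, 0.41 for gene_5483 and -0.32 for gene_2102. It was larger in the other 4, at 0.72 for gene_3542, -1.01 for gene_3872, -0.70 for gene_4088 and -0.80 for gene_2784. Without the block gene_3542, gene_5483, gene_2784 and gene_2102 had log2 differences of 0.63, 0.60, -0.59 and -0.38.

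**Figure D5:**
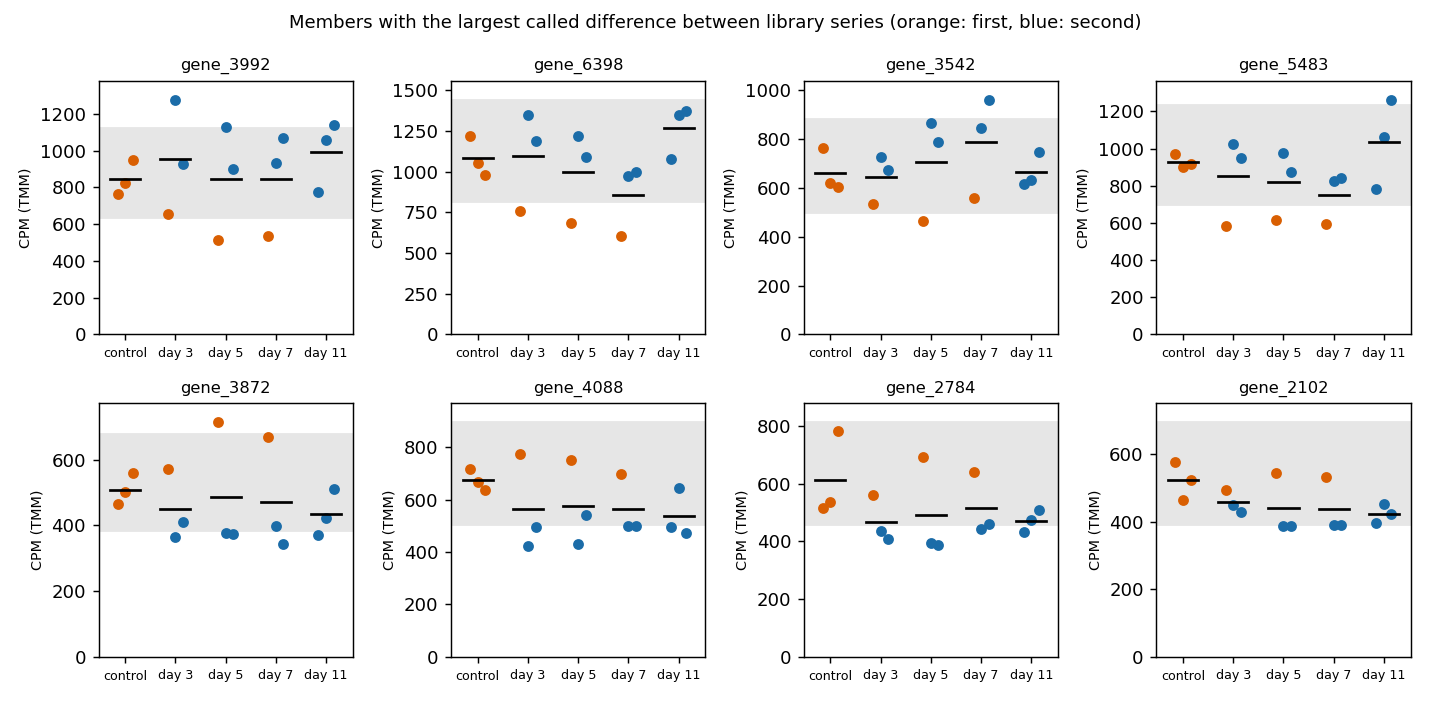
Level (CPM, vertical axis from 0) in every library of the 4 members with the largest called difference toward the second series (upper row) and toward the first (lower row). Each dot is a library, orange for the first series and blue for the second, black bars are group means and the grey band spans the limits of the rule, 25% below to 33% above the control mean. On days 3, 5 and 7 the orange dots lie below both blue dots in the upper row and above them in the lower row.

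The second series lay above the first on each of days 3, 5 and 7 with no overlap in 41 of the 95 genes and below it in 10, beside 18.3% and 15.9% of all genes tested. These directions too are not independent of the rule. The test of whether the difference between series varied among these 3 days called 0 members in edgeR, beside 13 of 11386 genes, 0.114%. At an unadjusted p under 0.05 it gave 2 of the 95 members, beside 707 of the 11386 genes. The lowest edgeR adjusted p among the members was 0.572, for gene_1980. The DESeq2 likelihood ratio test called 1 member, the same gene, with an adjusted p of 0.0245, and called 154 of all genes tested. Each of these days has 1 first-series library, and a p above the threshold does not show that the days were alike.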

How the data were processed

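Poly-A RNA of 15 mycelium libraries was sequenced on an Illumina HiSeq instrument, per the labels' protocols. HISAT2, StringTie, DESeq 1.10.1 and DESeq2 are named, with no roles, in the submitters' processing notes. Neither a genome build nor an annotation version is given in the sources used here. The deposited files hold the authors' estimated counts per gene, as whole numbers used unchanged, and FPKM values scaled by the authors for transcript length and mapped fragments. The deposited gene length was used only to set the scale of the implied lengths in the closing observations.

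CPM was computed with TMM factors over all 12885 rows in R 4.3.3 with edgeR 4.0.16. Series differences were tested with edgeR's robust quasi-likelihood fit of all 15 libraries, whose terms were the group and the library series, on the 11386 genes that pass filterByExpr, with 9 residual degrees of freedom. Alternatives used DESeq2 1.42.0, limma 3.58.1 on log2(FPKM + 1) and log2(FPKM + 0.1), other scalings and single libraries left out. Totals of 32472274 counts or more limit counting error to at most 1.06% for these genes in any library, and the spread between libraries sets the precision. No 2 libraries of a group were as close as sampling noise would make them, with a chi-square of 109 to 339 per degree of freedom.

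Genes and lists were chosen with earlier results of these data known. The rule named the 6 members with the highest control CPM, the 3 with the highest FPKM, the 4 lowest and 4 highest CV over 15 libraries, up to 4 per direction with the largest called series difference, up to 3 called for the interaction, and genes at the limits. Product-based gene lists could not be used, since the files pair no identifiers with products.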

Additional observations from a re-analysis of the deposited data

How the results depend on the processing

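The number of steady abundant genes stayed within 1.5 times of 95 under each alternative scaling, the FPKM values, the narrower band, the first series alone (75 genes, 55 shared), the removal of both later first-series wood libraries (84, with 80 shared) and each library left out (87 to 99). Which genes were found changed more than their number with library totals and FPKM. A control floor of 200 CPM gave 441 genes and one of 1000 CPM gave 21. The members' share of summed FPKM was 7.06% in the control and 9.51% at day 11, each further from the share of counts than 1 SD. The median CV within groups was 11.6% to 15.3% without single libraries. The share of counts was 6.89% to 6.95% in the control, 8.77% to 9.01% at day 3, 8.49% to 8.93% at day 5, 8.54% to 9.10% at day 7 and 9.04% to 9.24% at day 11 when 1 library of the group was left out.

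The count of members that differ between series was 30 to 46 with other scalings, no filter, DESeq2, limma on FPKM and days 3, 5 and 7 alone. The share of all genes called in these settings ran from 18.4% with no filter to 25.9% with DESeq2, which gave the 46. The count of members was 11 to 40 when single libraries were left out, beside 7.82% to 20.4% of all genes tested. It was 0 without replicate 1 of days 5 and 7. It was also 0 with a replicate block. The numbers were not shown to pair libraries: 4 of 26 same-numbered pairs had a correlation of their deviations from group means above 0.1, and 8 of 14 numbered libraries correlated best with their own number on average. The pairs above 0.1 include those among replicate 1 of days 3, 5 and 7. Their correlations were 0.26 (days 3 and 5), 0.23 (days 3 and 7) and 0.42 (days 5 and 7). These are the first-series wood libraries, so number and series cannot be told apart there. The count for a series difference that varies among days was 0 in each alternative, the replicate block and the 12 libraries left out included, except with DESeq2. That test called 1 member, beside 154 of all genes tested. Leaving out a first-series library of days 3, 5 or 7 could not be run for that test, since the day then has 1 series. Controls and day 11 share no series, so their ratio cannot be told apart from the series.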

Other observations

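The deposited counts and FPKM values together give an implied mean transcript length per gene and library, as count over FPKM divided by a constant of the library. The constant was the 95th percentile of count over FPKM and listed length among reference genes with 1000 or more counts in every library, so the listed length sets the scale in bases and the values are best compared between libraries of a gene. For the unnumbered day 5 counts the FPKM of day 5 replicate 3 was used, a pairing that the headings do not state. This quantity was added after the data were seen and was not tested. The highest library exceeded the lowest by less than 5% in 54 of the 95 genes and by more than 25% in 15. Its median was 1940 bases over the members and 2184 over the other 343 abundant genes.

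The genes that follow were chosen after these values were seen. For gene_772, one of the 4 members with the lowest CV by CPM, the implied length was 5101, 4946 and 4467 bases in the controls, and in the wood libraries it was 3294 to 4503 bases. For gene_1980 the implied length was 5953 to 5980 bases in 13 libraries, 4776 in replicate 1 of day 3 and 3158 in replicate 3 of day 11. For gene_7415, which had the widest range among the members at 1.93-fold, it was 4437 bases in replicate 3 of day 3 and 2297 to 3438 bases in the other 14 libraries.

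Of the newly assembled loci, 0 of 847 met the same limits on level and ratio.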
